A study of Mus musculus with 14 samples.

Results

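The serotonin synthesis and prolactin receptor axis was followed through mouse pancreatic β-cells and islets as 10 genes chosen by symbol from 37310 gene identifiers. They are the tryptophan hydroxylases Tph1 (ENSMUSG00000040046) and Tph2 (ENSMUSG00000006764), the decarboxylase Ddc (ENSMUSG00000020182), the vesicular monoamine transporters Slc18a1 (ENSMUSG00000036330) and Slc18a2 (ENSMUSG00000025094), and the transcription factor Fev (ENSMUSG00000055197). The set is completed by the prolactin receptor Prlr (ENSMUSG00000005268), the serotonin receptors Htr1d (ENSMUSG00000070687) and Htr2b (ENSMUSG00000026228), and the monoamine oxidase Maoa (ENSMUSG00000025037). All 10 were found in each table of read counts. They were named with earlier results of these counts known, so the p-values below place each gene in a fit over all genes and are not independent support for the choice.

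Serotonin is made from tryptophan by hydroxylation, the rate-limiting step carried out by Tph1 outside the brain and by Tph2 in brain neurons, and then by decarboxylation through Ddc. Vesicular transporters load it into secretory granules, where β-cells keep it beside insulin, and monoamine oxidase breaks it down. In pregnant mice, prolactin and placental lactogen act on the prolactin receptor of β-cells through Jak2 and Stat5, Tph1 is strongly induced, and serotonin acts back on the islet through Htr2b and Htr1d. The purpose of the series, by its title, is the shift between the kinases mTORC1 and AMPK during β-cell maturation and in diabetes.

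RNA was sequenced from 14 libraries of mice with a C57BL/6 background. Some islet titles carry the prefix BKS, and whether it names another background was not resolved here. Adult β-cells came from wild-type mice at postnatal day 45 and neonatal β-cells from wild-type mice at day 6 (n = 3 each). Whole islets labelled TSC1 KO, called a β-cell knockout in the study's design text, and whole islets of their RC controls came from mice of 8 weeks (n = 2 each), and islets labelled Db and their BKS controls came from mice of 4 weeks (n = 2 each). The Cre driver, the way the β-cells were obtained, the meaning of the prefix RC and whether libraries came from separate animals are not given in the sources used here, so p-values measure only the spread between these libraries, which may be technical.

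Libraries held 12696006 to 16222921 gene counts in adult β-cells and 14166621 to 15374425 in neonatal β-cells. They held 3507929 to 4392206 in islets labelled TSC1 KO and 5843371 to 6212629 in RC controls, and 16897616 to 17688772 in Db islets and 9020767 to 10117880 in BKS controls. Levels are given as CPM, counts scaled to one common library total after TMM normalization within a table, so levels of different tables were normalized separately and no test crosses them other than the joint fit of islet effects. The 10 β-cell markers were detected in every group, which goes with islet tissue but cannot check the label of any group. Tsc1, the targeted gene, read 31.0 and 34.5 CPM in islets labelled TSC1 KO, against 25.1 and 54.1 CPM in RC controls, and was not called lower by edgeR's quasi-likelihood test with Benjamini-Hochberg adjustment (log2 difference −0.28 ± 0.38 SE, adjusted p = 0.638). Gene counts do not separate a deleted exon or β-cells from other cells, so the reads neither bear out nor contradict the label, and directions below are those of the libraries as labelled.

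The promoters of the 2 genes around which the axis turns are shown first, because a Stat5 motif is the link by which prolactin receptor signals reach DNA. RefSeq (GRCm38.p6) gave a promoter for 9 of the 10 genes, 14 windows of 250 bases before an annotated start. The letters TTCNNNGAA, which read the same on both strands and are the core recognised by Stat5, were found in 1 of the 14 windows. They are held by 2306 of 32851 RefSeq promoters of this length (7.02%), so 1 in 14 is near the background. The match lies in the second annotated promoter of Prlr, 110 to 102 bases before the start, and is printed in capitals below. Prlr promoters 1 and 3 hold no match and are not printed, so the Prlr window below was picked by its match. Neither Tph1 window holds it, which says only that the letters are not in these 250 bases. A strict form of the site bound by the ETS family, to which Fev belongs, was searched as CCGGAAGT on both strands. It is held by 945 promoters (2.88%) and by 0 of the 14 windows. Shorter or looser ETS sites were not searched, so the windows may hold them. No annotated exon falls in the windows shown.
Tph1 promoter 1, chr7:46672538-46672787, minus strand: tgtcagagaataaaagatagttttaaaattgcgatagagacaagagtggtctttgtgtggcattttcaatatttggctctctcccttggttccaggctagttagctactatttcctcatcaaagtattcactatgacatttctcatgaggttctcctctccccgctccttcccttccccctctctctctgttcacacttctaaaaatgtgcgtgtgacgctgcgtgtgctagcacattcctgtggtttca
Tph1 promoter 2, chr7:46667378-46667627, minus strand: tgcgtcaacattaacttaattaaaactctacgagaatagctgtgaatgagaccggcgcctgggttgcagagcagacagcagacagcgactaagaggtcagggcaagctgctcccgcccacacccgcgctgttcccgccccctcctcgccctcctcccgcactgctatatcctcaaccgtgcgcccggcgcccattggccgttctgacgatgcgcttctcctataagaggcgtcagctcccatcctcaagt
Prlr promoter 2, chr15:10223656-10223905, plus strand: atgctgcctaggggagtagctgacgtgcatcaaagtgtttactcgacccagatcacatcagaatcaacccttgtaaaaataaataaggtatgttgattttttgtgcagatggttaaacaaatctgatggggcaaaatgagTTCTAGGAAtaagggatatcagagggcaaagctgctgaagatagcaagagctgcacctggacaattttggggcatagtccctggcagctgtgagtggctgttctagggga

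The Tph1 windows on chromosome 7 differ in composition, with 43.6% and 58.8% G and C, and the printed Prlr window on chromosome 15 has 44.8%. Which start the reads came from cannot be read from counts per gene.

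The first comparison asked how the axis differs between adult and neonatal β-cells. Adult β-cells carried more Tph1, Ddc and Prlr and less Fev than neonatal β-cells. Of the 10 genes, 7 had enough reads to be tested, and 3 were higher and 1 lower at an adjusted p under 0.05, a call made for 6.98% of the 14304 genes tested (3.38% higher and 3.6% lower). Tph2, Slc18a1 and Maoa were not called, and Slc18a2, Htr1d and Htr2b had too few reads.

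Tph1, which sets the rate of serotonin synthesis outside the brain, had 763, 690 and 428 CPM in adult β-cells, against 29.3, 18.2 and 23.6 CPM in neonatal β-cells. The lowest adult library was far above the highest neonatal one. The means were 627 ± 176 CPM in adult β-cells and 23.7 ± 5.52 CPM in neonatal β-cells (SD, n = 3 each), a fitted 26.5-fold difference (log2 4.73 ± 0.25 SE). This difference was among the earlier results with which the genes were named, so it is a description, and the count of higher genes above, which includes Tph1, supports nothing.

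Tph2, the form of brain neurons, had 42.5, 35.6 and 43.4 CPM in adult β-cells, against 16.9, 4.78 and 27.3 CPM in neonatal β-cells. The groups did not overlap, but the neonatal libraries spread widely, and the difference was not called (log2 1.31 ± 0.47, edgeR adjusted p = 0.12). Without neonatal replicate 3b it was called (log2 1.90, edgeR adjusted p = 0.0263).

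Tph1 made up more of the hydroxylase reads in every adult library than in any neonatal one. It gave 94.7%, 95.1% and 90.8% of the reads of both genes in adult libraries, against 63.4%, 79.2% and 46.3% in neonatal libraries. The exact 95% binomial intervals reached no lower than 90.0% in adult libraries and no higher than 83.4% in neonatal ones, and cover counting error only. These shares are not corrected for transcript length, which is 4562 bases for the longest Tph1 transcript and 2626 bases for that of Tph2. In neonatal replicate 3b Tph2 held more reads than Tph1, 449 against 387.

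Ddc, which turns hydroxytryptophan into serotonin, had 457, 542 and 576 CPM in adult β-cells, against 343, 182 and 252 CPM in neonatal β-cells. Every adult library was above every neonatal one. The fitted difference was 2.03-fold (log2 1.02 ± 0.20, edgeR adjusted p = 0.00574).

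Slc18a1, the monoamine transporter of endocrine granules, had 51.2, 39.8 and 46.1 CPM in adult β-cells, against 31.9, 19.0 and 23.1 CPM in neonatal β-cells. The groups did not overlap, and the difference was not called by edgeR (log2 0.89 ± 0.30, adjusted p = 0.0855), while DESeq2 called it (adjusted p = 0.0475). Slc18a2, the transporter of monoamine neurons, had 0 counts in all 6 β-cell libraries. A count of 0 allows at most 3 counts, 0.201 to 0.24 CPM in adult libraries and 0.183 to 0.202 CPM in neonatal libraries.

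Fev, an ETS factor that specifies serotonin neurons, had 0.134, 0.214 and 0.72 CPM in adult β-cells, against 5.20, 3.43 and 16.5 CPM in neonatal β-cells. All adult libraries were below all neonatal ones, with 14 counts in adult and 402 counts in neonatal libraries. The fitted difference was log2 −4.54 ± 1.13 (edgeR adjusted p = 0.0222). The call was lost without adult replicate 1 (adjusted p = 0.0993), adult replicate 2 (0.0889) or neonatal replicate 3b (log2 −3.58, adjusted p = 0.212).

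Prlr, the receptor for prolactin and placental lactogen, had 2769, 2599 and 2097 CPM in adult β-cells, against 817, 596 and 660 CPM in neonatal β-cells. The groups were widely separated. The difference was 3.6-fold (log2 1.85 ± 0.16, edgeR adjusted p = 4.76e-06), and it stayed between 1.68 and 1.99 on the log2 scale over 12 alternatives. Prl, which encodes prolactin, had 0 counts in all 14 libraries.

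Maoa, which breaks serotonin down, had 19.4, 14.8 and 19.1 CPM in adult β-cells, against 6.31, 5.92 and 6.39 CPM in neonatal β-cells. The neonatal libraries lay close together and below every adult one. The difference was not called by edgeR (log2 1.52 ± 0.46, adjusted p = 0.0563), while DESeq2 called it (adjusted p = 0.0127).

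The receptors gave almost no reads. Htr2b, through which serotonin drives β-cell growth in pregnant mice, had 5 counts over the adult libraries and 1 over the neonatal ones. Htr1d had 2 counts in adult libraries and 53 in neonatal libraries, and all 53 came from neonatal replicate 3b. That library also held the highest Fev and Tph2 of its group, and its 8 mesenchymal markers summed to 197 CPM, against 17.8 CPM in neonatal replicate 1 and 5.85 CPM in replicate 3a. The part of this in the results was not tested.

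**Figure D1:**
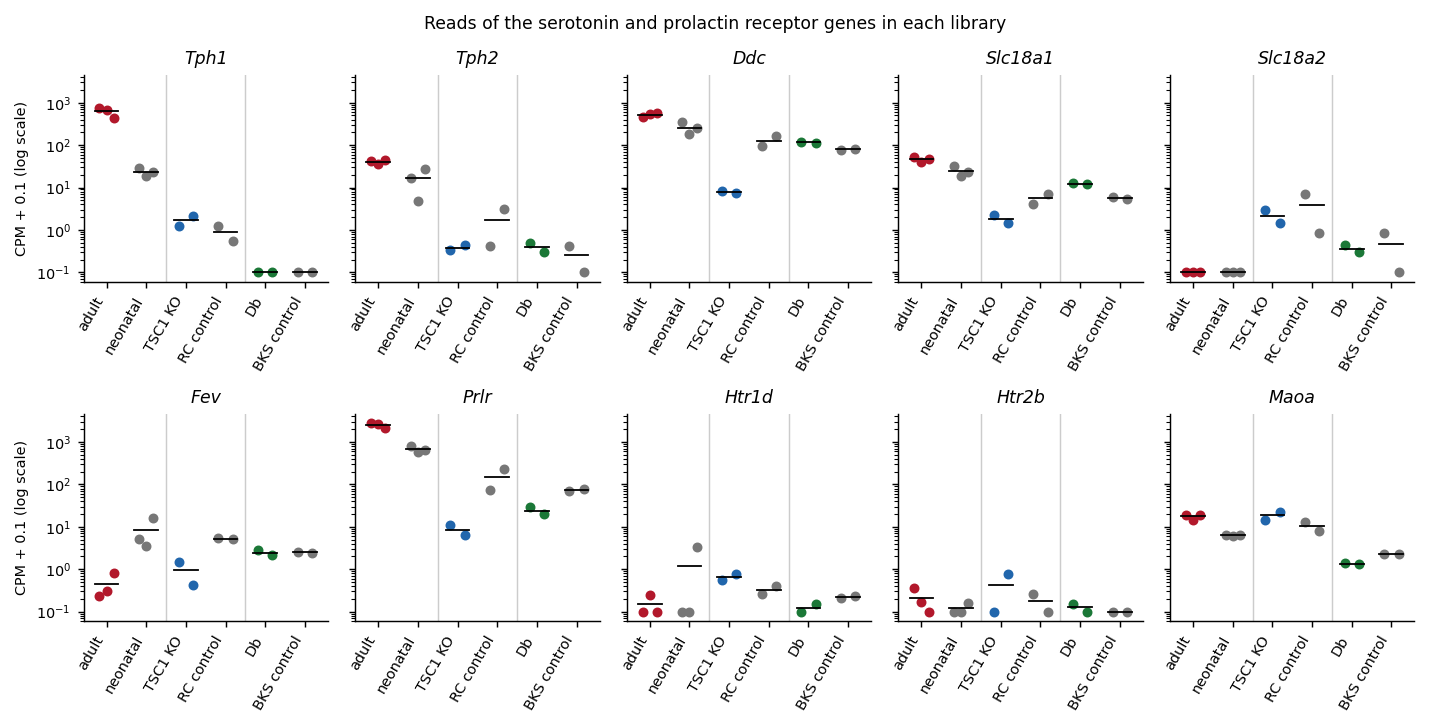
Reads of the 10 genes in every library, as CPM + 0.1 on a logarithmic axis, by group, with 1 point a library and a black line at the group mean; zero counts lie at 0.1 and tables were normalized separately. Adult β-cells sit above neonatal ones for Tph1 and Prlr and below them for Fev, and islets labelled TSC1 KO have the lowest Ddc and Prlr of all groups.

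Levels were divided by the length of the longest annotated transcript to set different genes side by side. Prlr has 12 annotated transcripts, Ddc 10 and Tph1 8. Which of them were expressed was not tested, so the ranks depend on this choice of length. Ddc led in adult β-cells with a mean of 260 CPM per kb, next to Prlr with 251. Their ranges overlapped. Tph1 followed with 137, clear of both, and then Tph2 with 15.4 and Slc18a1 with 14.7, whose ranges overlapped. Maoa had 4.26 CPM per kb in adult β-cells. In neonatal β-cells Ddc led with 128 and Prlr followed with 69.8, while Slc18a1 (7.92), Tph2 (6.22), Fev (5.62) and Tph1 (5.19) overlapped with one another. Tph1 thus had rank 3 of the 10 genes in adult and rank 6 in neonatal β-cells.

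**Figure D2:**
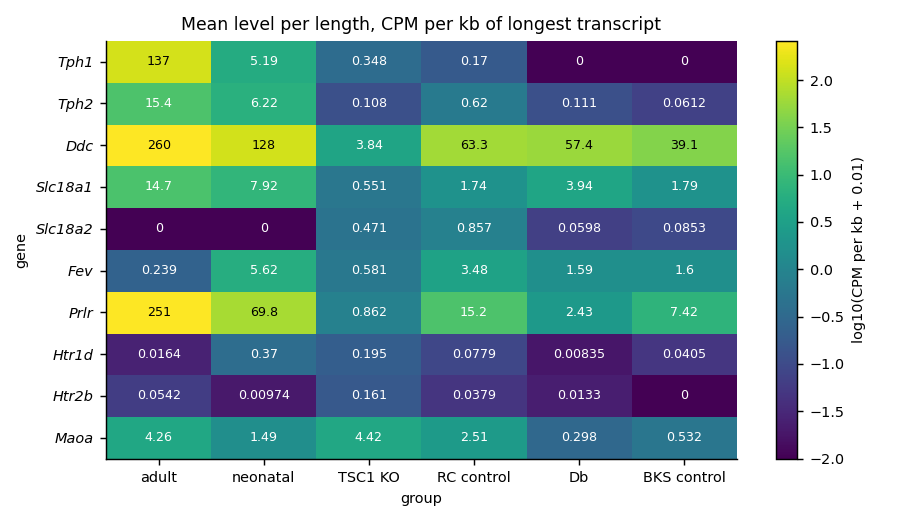
Mean level of each gene in each group in CPM per kb of longest transcript, printed in each cell and coloured by log10(CPM per kb + 0.01). Tph1 has 137 in adult β-cells and 5.19 in neonatal β-cells, and is at 0 in Db and BKS control islets.

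Among 14 islet genes known to respond to prolactin or pregnancy, a list drawn up with earlier results known, 13 were tested in β-cells. Of these, 5 were higher in adult β-cells, 0 were lower and 8 were not called. Their median log2 difference was 0.30, and that of all genes tested was −0.03. The list was not split by the direction of the known response, so these counts and the median do not measure a prolactin response. Leaving out single libraries gave between 4 and 6 higher.

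Matn2, a matrix protein, averaged 840 ± 36.1 CPM in adult and 219 ± 47.5 CPM in neonatal β-cells (SD, n = 3 each; log2 1.94 ± 0.17, edgeR adjusted p = 6.15e-06). Tnfrsf11b, which encodes the decoy receptor osteoprotegerin, had 125, 111 and 121 CPM in adult β-cells, against 16.1, 11.5 and 23.3 CPM in neonatal β-cells (log2 2.81 ± 0.27, edgeR adjusted p = 1.43e-05). Both were separated between the ages without overlap. Ehhadh, a peroxisomal enzyme of fatty acid oxidation, averaged 146 ± 9.98 CPM in adult and 39.2 ± 14.6 CPM in neonatal β-cells (log2 1.89 ± 0.26).

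Cish and Socs2 are Stat5 target genes whose proteins damp cytokine receptor signals. Cish had 411, 432 and 470 CPM in adult β-cells, against 195, 184 and 150 CPM in neonatal β-cells (log2 1.31 ± 0.16, edgeR adjusted p = 0.000125). Socs2 had 125, 141 and 127 CPM in adult β-cells, against 74.5, 70.6 and 67.2 CPM in neonatal β-cells (log2 0.89 ± 0.19, edgeR adjusted p = 0.00855). Neither overlapped between ages, and the Socs2 call was lost without adult replicate 2 (adjusted p = 0.072). Gbp8 had the highest fitted difference of the list (log2 2.88 ± 0.79) and was not called (adjusted p = 0.0896), with one neonatal library at 23.2 CPM and the others at 2.80 and 4.26 CPM.

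**Figure D3:**
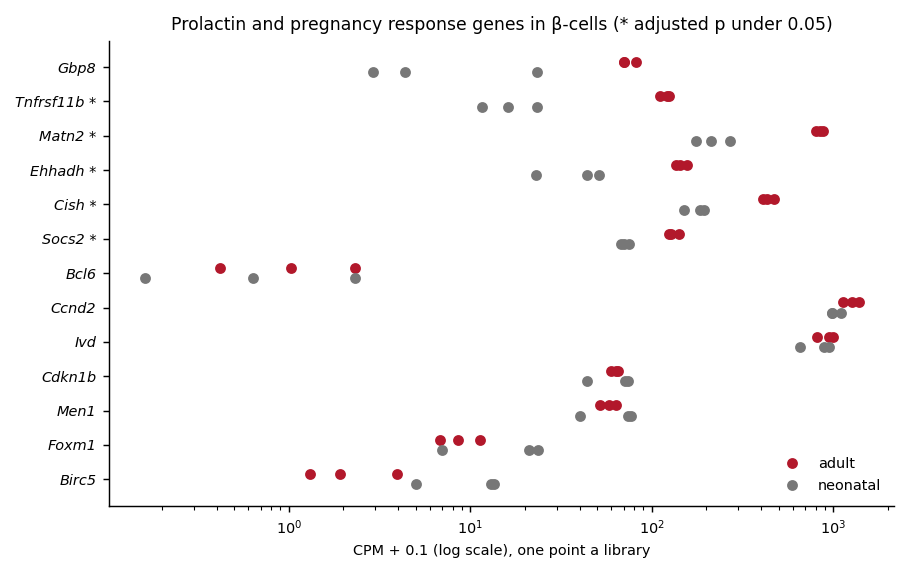
The 13 tested genes of the prolactin and pregnancy response list in adult (red) and neonatal (grey) β-cells, as CPM + 0.1 on a logarithmic axis with 1 point a library, ordered by fitted difference; an asterisk marks an edgeR adjusted p under 0.05. The 5 marked genes have all adult libraries above all neonatal ones.

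Of 17 genes of prolactin and growth hormone receptor signalling, 15 were tested. Cish and Socs2, which this list shares with the one above, were higher and Socs3 was lower in adult β-cells (15.7 ± 2.75 CPM in adult and 48.3 ± 8.29 CPM in neonatal, log2 −1.62 ± 0.30, edgeR adjusted p = 0.00403). The other 12 were not called. None of the relay genes was called, with the kinase Jak2 at −0.52 ± 0.31, Stat5a at 0.02 ± 0.43 and Stat5b at 0.14 ± 0.19. Ghr, the growth hormone receptor and the nearest relative of Prlr in this list, averaged 262 ± 30.3 CPM in adult and 268 ± 45.8 CPM in neonatal β-cells (log2 −0.03 ± 0.17).

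Of 20 further genes of serotonin synthesis, transport and breakdown, 15 were tested, 0 were higher and 2 were lower in adult β-cells. Gch1, which makes the cofactor of the hydroxylases, averaged 103 ± 11.3 CPM in adult and 175 ± 32.7 CPM in neonatal β-cells (log2 −0.77 ± 0.19, edgeR adjusted p = 0.0219). Slc29a4, a membrane monoamine transporter, averaged 4.61 ± 3.34 CPM in adult and 22.4 ± 6.74 CPM in neonatal β-cells (log2 −2.27 ± 0.56, edgeR adjusted p = 0.0217). Both calls were lost when single adult libraries were left out, Gch1 without any of the 3 (adjusted p up to 0.144) and Slc29a4 without replicate 1 (0.0913) or 3 (0.083), and Slc29a4 also without neonatal replicate 3b (0.0561). The plasma membrane serotonin transporter Slc6a4 had 0 counts in all β-cell libraries. None of 12 further serotonin receptors had enough reads to be tested.

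Of 10 factors of the serotonergic and endocrine lineages, 6 were tested and 2 were lower in adult β-cells. Lmx1b, which acts beside Fev in serotonin neurons, had 4.35, 6.995 and 9.28 CPM in adult β-cells, against 47.4, 18.5 and 56.5 CPM in neonatal β-cells (log2 −2.57 ± 0.45, edgeR adjusted p = 0.00246). Insm1, a zinc-finger factor of endocrine progenitors, averaged 117 ± 18.2 CPM in adult and 196 ± 47.2 CPM in neonatal β-cells (log2 −0.74 ± 0.20, edgeR adjusted p = 0.0387). The Insm1 call was lost without any of 5 libraries, adult 1, 2 or 3 or neonatal 1 or 3a (adjusted p 0.0592 to 0.186).

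Cell markers of the β-cell libraries moved with age too. Of 10 β-cell markers 5 were higher and 0 lower in adult β-cells, and their sum was 55080 to 90900 CPM in adult and 24400 to 33550 CPM in neonatal libraries. Of 9 duct markers, 0 were higher and 5 lower, with sums of 533 to 688 CPM in adult and 1043 to 1654 CPM in neonatal libraries. Leaving out adult replicate 1, 2 or 3 gave 1, 3 and 1 lower duct markers. Other islet endocrine markers were 0 higher and 3 lower of 9. Their sums overlapped, at 470 to 2221 CPM in adult and 1172 to 2268 CPM in neonatal libraries. Leaving out adult replicate 2 gave 1 lower, and leaving out neonatal replicate 3a gave 4. The part of these cell markers in the axis was not tested. Gut enterochromaffin cells and mast cells also make serotonin through Tph1. The gastric and enterochromaffin markers summed to 2.78 to 6.09 CPM in adult and 0 to 1.30 CPM in neonatal libraries, with Gkn1, Gkn2 and Gkn3 at 0. The mast cell markers Cpa3 and Mcpt4 were at 0 in all 6, and Kit and Hdc alone of that list had counts. In bulk RNA, fewer cells of a type and less RNA per cell cannot be told apart.

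The comparison of islets labelled TSC1 KO with RC controls bears on constant mTORC1 activity, since the Tsc1 protein restrains that kinase. Islets labelled TSC1 KO had far less Ddc and Prlr than RC controls, and less Fev. Of the 10 genes 6 were tested, and 0 were higher and 3 lower (Ddc, Fev and Prlr), against 18.6% of the 14515 genes called, 8.63% higher and 10% lower. Slc18a1, Slc18a2 and Maoa were not called. With 2 libraries a group every edgeR call rests on both knockout libraries, since 0 genes were called without replicate 1 (3535 at an unadjusted p under 0.05) or without replicate 2 (3061).

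Ddc had 8.16 and 7.36 CPM in islets labelled TSC1 KO, against 94.3 and 161 CPM in RC controls. The groups lay more than a factor of 10 apart. Ddc was 16.4-fold lower in the fit (log2 −4.03 ± 0.35, edgeR adjusted p = 0.0105), with adjusted p = 0.0892 and 0.148 without knockout replicate 1 and 2.

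Prlr had 10.7 and 6.35 CPM in islets labelled TSC1 KO, against 75.0 and 227 CPM in RC controls. The controls lay far apart, and both were above both knockout libraries. Prlr was 17.3-fold lower in the fit (log2 −4.12 ± 0.67, edgeR adjusted p = 0.022), and it was not called with no filter on low counts (adjusted p = 0.0677).

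Fev had 1.40 and 0.334 CPM in islets labelled TSC1 KO, against 5.21 and 5.15 CPM in RC controls, 7 counts in all against 68. It was lower by a fitted log2 −2.44 ± 0.65 (edgeR adjusted p = 0.0489). That call was lost with any single library left out, by DESeq2 (0.0822), by limma-voom (0.0681) and with a replicate block (0.0759). Slc18a1 had 2.10 and 1.34 CPM in islets labelled TSC1 KO, against 3.95 and 6.92 CPM in RC controls (log2 −1.62 ± 0.55, edgeR adjusted p = 0.0906). It was not called, and it reached the threshold without RC control replicate 1 (log2 −1.96, adjusted p = 0.05).

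Maoa had 14.5 and 22.4 CPM in islets labelled TSC1 KO, against 13.1 and 7.80 CPM in RC controls. Both knockout values were above both controls, and the difference was not called (log2 0.81 ± 0.37, edgeR adjusted p = 0.171). Slc18a2 had 2.80 and 1.34 CPM in islets labelled TSC1 KO, against 6.79 and 0.736 CPM in RC controls, with overlap. The rate-limiting enzymes were barely detected. Tph1 had 5 and 6 counts in islets labelled TSC1 KO, against 7 and 3 counts in RC controls, and Tph2 had 1 and 1 counts in islets labelled TSC1 KO, against 2 and 20 counts in RC controls. Htr1d and Htr2b had at most 2 counts in any of the 4 libraries.

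Most β-cell markers were lower too. Of 10 markers 9 were lower and 0 higher in islets labelled TSC1 KO, with a median log2 difference of −2.96, and their sum was 12860 to 13360 CPM in islets labelled TSC1 KO and 235000 to 265500 CPM in RC controls. Other islet endocrine markers counted 1 higher and 5 lower of 9, with sums of 2810 to 7170 CPM in islets labelled TSC1 KO and 25760 to 29990 CPM in RC controls. Gastric and enterochromaffin markers were 4 higher and 0 lower of 6 tested, with sums of 197 to 322 CPM in islets labelled TSC1 KO and 15.01 to 46.6 CPM in RC controls, with Gkn1 and Gkn2 at 0 and Gkn3 at 96.5 ± 68.9 CPM in islets labelled TSC1 KO and 0.395 ± 0.559 CPM in RC controls. Mast cell markers were 1 higher and 0 lower of 3 tested, with sums of 53.8 to 62.5 CPM in islets labelled TSC1 KO and 25.3 to 28.1 CPM in RC controls, and with Cpa3 and Mcpt4 at 0. The higher one was Gata2, with means of 39.0 CPM in islets labelled TSC1 KO and 13.4 CPM in RC controls. Gata2 is counted again among the lineage factors below. Endothelial markers were 4 higher and 0 lower of 8, with sums of 4015 to 5422 CPM in islets labelled TSC1 KO and 2477 to 2753 CPM in RC controls. Duct markers were 2 higher and 0 lower of 9, with sums of 2979 to 4272 CPM in islets labelled TSC1 KO and 519 to 1726 CPM in RC controls, and 8 and 4 were higher without RC control replicate 1 and 2. Mesenchymal markers were 0 higher and 0 lower of 8, with sums of 828 to 4430 CPM in islets labelled TSC1 KO and 280 to 669 CPM in RC controls and a median log2 difference of 2.66. The part of these cell markers in the lower Ddc, Prlr and Fev was not tested.

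Of the further serotonin genes 15 were tested, 1 was higher and 7 were lower in islets labelled TSC1 KO, with a median log2 difference of −0.65 against 0.00 over all genes. The large amino acid carriers that admit tryptophan were among them. Slc7a5 had 8.16 and 7.02 CPM in islets labelled TSC1 KO, against 35.4 and 50.5 CPM in RC controls (log2 −2.49 ± 0.28, edgeR adjusted p = 0.0109). Slc7a8 had 21.9 and 21.4 CPM in islets labelled TSC1 KO, against 92.6 and 139 CPM in RC controls (log2 −2.42 ± 0.27). Th, the hydroxylase of dopamine synthesis, differed by log2 −2.07 ± 0.26 and Maob, the other monoamine oxidase, by log2 −1.55 ± 0.28.

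In prolactin receptor signalling 16 genes were tested, 0 were higher and 1 was lower, Ghr (26.3 and 32.1 CPM in islets labelled TSC1 KO, against 58.8 and 80.9 CPM in RC controls, log2 −1.26 ± 0.25, edgeR adjusted p = 0.0242). Without RC control replicate 1 this list held 3 higher and 2 lower. Of 12 tested prolactin and pregnancy response genes, Bcl6, a transcriptional repressor, was higher (log2 1.43 ± 0.32, edgeR adjusted p = 0.0335) and 0 were lower. The Bcl6 call was lost without RC control replicate 2 (adjusted p = 0.0506) and with library sizes alone as scaling (0.0549), and without RC control replicate 1 this list held 2 higher and 2 lower. Of 6 tested lineage factors, Insm1 (log2 −3.31 ± 0.31), Neurod1 (−2.93 ± 0.24) and Nkx2-2 (−2.79 ± 0.42) were lower and Gata2 (1.55 ± 0.28) was higher. Each of these calls also needs both knockout libraries. Htr3a, an ion channel receptor and the sole further serotonin receptor tested, had 5.36 and 0.334 CPM in islets labelled TSC1 KO, against 36.0 and 4.86 CPM in RC controls (log2 −2.71 ± 1.27, edgeR adjusted p = 0.195).

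The comparison of islets labelled Db with BKS controls concerns diabetes, for which the db mouse is a common model. Db islets had less Prlr and more Slc18a1 and Ddc than BKS controls, and Tph1 was not detected. Of the 10 genes 5 were tested, and 2 were higher and 1 lower, in a comparison where 48.2% of the 14369 genes tested were called (24.3% higher and 23.9% lower). Fev and Maoa were not called.

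Prlr had 28.5 and 19.6 CPM in Db islets, against 68.4 and 78.6 CPM in BKS controls. Both Db libraries were below both controls. Prlr was 3.06-fold lower in the fit (log2 −1.61 ± 0.21, edgeR adjusted p = 7.84e-07), and it stayed between −1.89 and −1.30 on the log2 scale over 11 alternatives.

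Slc18a1 had 12.5 and 12.0 CPM in Db islets, against 5.78 and 5.39 CPM in BKS controls. The libraries of each group lay close together. Slc18a1 was 2.19-fold higher in the fit (log2 1.13 ± 0.26, edgeR adjusted p = 0.000926).

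Ddc had 119 and 113 CPM in Db islets, against 78.2 and 79.8 CPM in BKS controls. It was higher by log2 0.55 ± 0.20 (edgeR adjusted p = 0.0217), and the call was lost without Db replicate 1 (0.134) or replicate 2 (0.0965).

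Maoa had 1.27 and 1.21 CPM in Db islets, against 2.25 and 2.18 CPM in BKS controls. The groups did not overlap and the difference was not called (log2 −0.83 ± 0.42, edgeR adjusted p = 0.102). Fev had 2.71 and 2.04 CPM in Db islets, against 2.46 and 2.31 CPM in BKS controls (log2 −0.02 ± 0.38). Tph1 had 0 counts in all 4 libraries, which allows at most 0.145 to 0.166 CPM in Db islets and 0.321 to 0.385 CPM in BKS controls. Tph2 had 11 counts over both Db libraries and 3 over both BKS controls, and Slc18a2 had 10 over both Db libraries and 7 over both BKS controls.

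**Figure D4:**
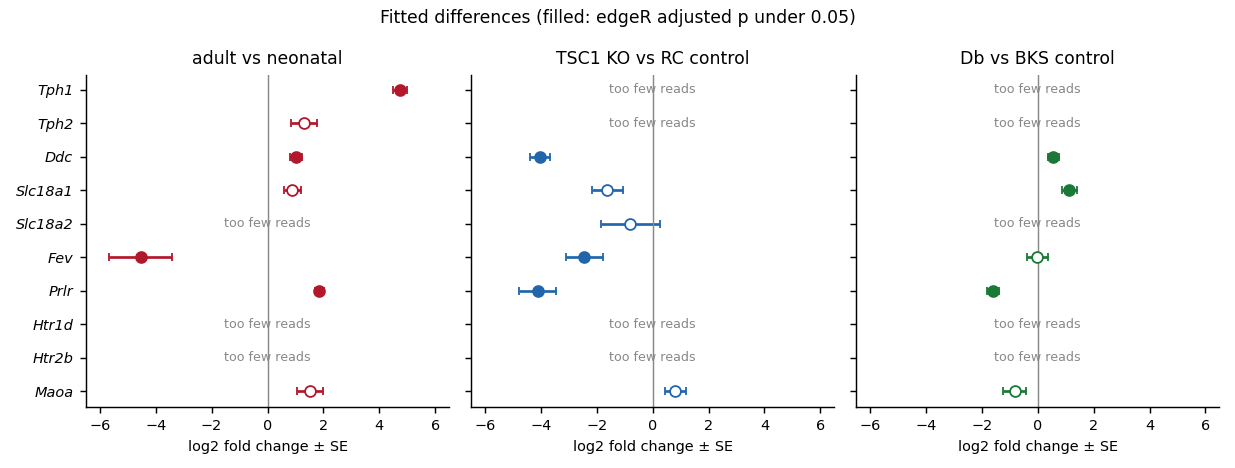
Fitted log2 fold change ± SE of each gene in adult β-cells against neonatal β-cells, islets labelled TSC1 KO against RC controls and Db islets against BKS controls; filled points have an edgeR adjusted p under 0.05, and grey text marks genes with too few reads. Prlr is at 1.85, −4.12 and −1.61, and Ddc at 1.02, −4.03 and 0.55.

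β-cell markers were 1 higher and 7 lower of 10 in Db islets, with sums of 427700 to 494600 CPM in Db islets and 599900 to 920500 CPM in BKS controls. Their median log2 difference was −0.94. Acinar markers were 6 higher of 8 tested, with sums of 129 to 292 CPM in Db islets and 18.1 to 21.0 CPM in BKS controls, and mesenchymal markers 5 higher of 7, with sums of 496 to 526 CPM in Db islets and 172 to 274 CPM in BKS controls. Duct markers were 4 higher and 2 lower of 8, with sums of 1094 to 1099 CPM in Db islets and 509 to 528 CPM in BKS controls, and 2 higher and 1 lower without Db replicate 2. Endothelial markers were 2 higher and 5 lower of 8, with sums of 671 to 683 CPM in Db islets and 873 to 910 CPM in BKS controls, and 0 higher and 4 lower without Db replicate 2. The part of these shifts in the axis was not tested.

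Of the further serotonin genes 14 were tested, 6 were higher and 3 lower in Db islets, against 24.3% higher and 23.9% lower over all genes. Maob had 14.2 and 13.5 CPM in Db islets, against 59.8 and 50.3 CPM in BKS controls (log2 −1.99 ± 0.21, edgeR adjusted p = 1.65e-08). Th had 86.9 and 99.7 CPM in Db islets, against 31.8 and 31.7 CPM in BKS controls (log2 1.55 ± 0.20). Pcbd2, which helps to regenerate the hydroxylase cofactor, was lower (log2 −1.45 ± 0.24), and Tgm2, a transglutaminase that can attach serotonin to proteins, was higher (log2 1.30 ± 0.24).

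Of 16 tested genes of prolactin and growth hormone receptor signalling, 5 were higher and 3 lower in Db islets. Over all genes 48.2% were called, so this count is near the background. The list held 3 higher without either Db library and 6 lower without BKS control replicate 1. Irs2, an adaptor of insulin and cytokine receptors, had 113 and 71.7 CPM in Db islets, against 18.6 and 18.7 CPM in BKS controls (log2 2.30 ± 0.23, edgeR adjusted p = 8.39e-09). Ptpn1, a phosphatase that acts on Jak2, had 93.9 and 88.6 CPM in Db islets, against 26.2 and 30.9 CPM in BKS controls (log2 1.68 ± 0.21). Jak2 itself was lower, with means of 4.18 CPM in Db islets and 9.65 CPM in BKS controls (log2 −1.21 ± 0.28, edgeR adjusted p = 0.000798). Stat5a (log2 −0.39 ± 0.28) and Stat5b (log2 0.13 ± 0.20) were not called. The Stat5 targets went opposite ways, with Cish higher (log2 1.00 ± 0.23) and Socs2 lower (log2 −1.09 ± 0.24). The Socs2 call was lost with library sizes alone as scaling (adjusted p = 0.0533).

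Of 13 tested prolactin and pregnancy response genes, 3 were higher and 5 lower in Db islets, against 24.3% higher and 23.9% lower over all genes. Tnfrsf11b had 8.51 and 7.85 CPM in Db islets, against 0.214 and 0.257 CPM in BKS controls, where both libraries lay under the 3-count limit. Men1, which encodes menin, a brake on β-cell growth, was higher (log2 1.47 ± 0.21) and Ivd, an enzyme of leucine breakdown, was lower (log2 −1.04 ± 0.21). Without Db replicate 1 the count of lower genes was 2. Of 8 tested lineage factors 2 were higher and 1 lower, with 48.2% of all genes called. Among them Neurog3 was higher (log2 1.63 ± 0.44, lost without Db replicate 1) and Nkx2-2 lower (log2 −0.73 ± 0.21, lost without Db replicate 2 or with library sizes alone as scaling). None of the 12 further serotonin receptors was tested.

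Over the 6 groups Prlr was highest in adult β-cells (2488 ± 350 CPM, n = 3), followed by neonatal β-cells (691 ± 114 CPM, n = 3), RC controls (151 ± 107 CPM, n = 2), BKS controls (73.5 ± 7.16 CPM, n = 2), Db islets (24.1 ± 6.32 CPM, n = 2) and islets labelled TSC1 KO (8.54 ± 3.09 CPM, n = 2). RC and BKS controls overlapped and no other neighbours did. Tph1 followed the same order only as far as the β-cells, with every islet library at 2.01 CPM or less. β-cells and islets differ in preparation, age, depth and table, which cannot be told apart here. CPM is also a share of reads, and the share of insulin reads differed between groups. Ins2 averaged 46110 CPM in adult and 15160 CPM in neonatal β-cells, 162000 CPM in RC controls and 564500 CPM in BKS controls. It averaged 297200 CPM in Db islets and 4849 CPM in islets labelled TSC1 KO. The order of groups is therefore one of read shares.

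The 5 genes whose profile was most like that of Prlr, by Pearson's r of log2(CPM + 1) centred on each table over 14 libraries and 12157 genes, were Prepl (0.974), Chic1 (0.972), Ero1lb (0.970), Robo2 (0.970) and Ufl1 (0.964). For Tph1 they were Mmgt2 (0.959), Mroh2a (0.954), Gabarapl1 (0.951), Lipt1 (0.943) and Enpep (0.936). The points share library depth and group, and Tph1 is at 0 in 4 of them, so the values are a description.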

How the data were processed

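Whole-number gene counts were deposited by the authors in 3 tables with no normalization. Per the labels' protocols, Trizol-extracted RNA went into SMARTer Stranded libraries. The submitters' processing notes name HTSeq 0.7.1, the aligner GSNAP, cutadapt 1.13 and DESeq2 1.16.0, with the builds mm9 and NCBIM37. How the counting treated strand is not given there, so Ddc, Slc18a1, Slc18a2 and Htr2b, which overlap genes on the other strand, and Prlr, which overlaps Gm21973 on its own strand, are uncertain to that extent. Because the annotation used here is of a later build, coordinates are given for RefSeq promoters only. Symbols matched 32620 of 37310 identifiers (87.4%).

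Rows that name no gene were left out. Gene rows held 24.52% to 44.27% of reads in the 2 tables that list the others. The lowest share was in adult replicate 3, with 53.64% of reads not aligned, against 14.89% to 26.03% in the other β-cell libraries. That library also had the lowest Tph1, Prlr and summed β-cell markers of the adult group. Groups come from sample titles, and 2 neonatal columns share the heading number 3 while none has number 2, so they are called 3a and 3b.

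Each table was fitted with edgeR 4.0.16 in R 4.3.3 (TMM, filterByExpr with a minimum count of 10 and minimum total of 15, robust quasi-likelihood F test, two-sided, Benjamini-Hochberg over all genes tested, threshold 0.05). A joint fit over the 8 islet libraries tested the difference between the TSC1 KO and Db effects. The code was tested on simulated data. DESeq2 1.42.0, limma-voom (limma 3.58.1), other scalings, no filter, a replicate block and leaving out each library were the alternatives. Counts of list genes with a library left out were added after seeing the data. Intervals and the 3-count limit cover counting error only. The genes and lists were chosen with earlier results of these data known. From each list, genes past the threshold were named, at most 4 by lowest adjusted p. Others named beside them were chosen after their values were seen. These are Jak2, Stat5a and Stat5b in β-cells and Db islets, Ghr and Gbp8 in β-cells, Prl, Slc6a4 and Tsc1. The values of 1 list gene past the threshold are not reported here.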

Additional observations from a re-analysis of the deposited data

Results flagged for a closer look

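The joint fit over 8 islet libraries tested 6 of the 10 genes (edgeR's quasi-likelihood test of the interaction). The effects in islets labelled TSC1 KO and in Db islets differed for 5 of these 6, where 31.8% of the 15702 genes tested were called. Slc18a2 was not called, and Tph1, Tph2, Htr1d and Htr2b had too few reads. The experiments differ in age, depth and control strain prefix, which cannot be told apart from genotype. For Ddc the effect in islets labelled TSC1 KO minus the effect in Db islets was −4.67 ± 0.39 on the log2 scale (SE, adjusted p = 1.52e-05), with effects of −4.03 and 0.55 within the 2 tables. For Slc18a1 it was −2.83 ± 0.53 (adjusted p = 0.00179), with effects of −1.62 and 1.13. Both differences were called under all 14 alternatives. Prlr was lower in both, by −4.12 and −1.61, and the effects differed by −2.59 ± 0.78 (adjusted p = 0.0437), a call lost without any single library of islets labelled TSC1 KO, Db islets or BKS controls (adjusted p 0.0675 to 0.135). For Fev the difference was −2.51 ± 0.73 (adjusted p = 0.0206), lost by DESeq2 (0.0727) and without TSC1 KO replicate 2 (0.0735), BKS control replicate 1 (0.0544) or 2 (0.056), or Db replicate 1 (0.0766). For Maoa it was 1.55 ± 0.54 (adjusted p = 0.0432), with effects of 0.81 and −0.83 that were not called on their own. It was lost by DESeq2 (0.101), limma-voom (0.0629), with library sizes alone (0.165), and without any one of 6 libraries, RC control 2, TSC1 KO 2, BKS control 1 or 2 or Db 1 or 2 (0.0989 to 0.174).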

How the results depend on the processing

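Genes called in adult against neonatal β-cells numbered 999, 1707 by DESeq2 and 405 to 1380 with a library left out. In islets labelled TSC1 KO the count was 2703, 1648 with a replicate block and 0 to 4015 with a library left out. In Db islets it was 6919, and 4419 to 6666 with a library left out. For the difference between those effects it was 4988, and 2910 to 5909 with a library left out. Leaving out any adult library, either TSC1 KO library or Db replicate 2 moved the count of its comparison by over 1.5 times. The labels do not say whether replicate numbers pair the samples. Deviations of same-numbered islet libraries correlated at −0.05 in the TSC1 table and −0.03 in the Db table. With 2 libraries a group this cannot decide whether they were paired. The block gave 6614 calls for Db. For β-cells no replicate block was fitted, because their columns carry the number 3 on 2 libraries and no number 2.

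Library sizes alone moved the split of calls to 321 higher and 872 lower with age (484 and 515 with TMM), 756 and 1961 in islets labelled TSC1 KO (1252 and 1451), 3983 and 1562 in Db islets (3488 and 3431) and 868 and 3811 for the difference (2066 and 2922). The median of all genes moved to −0.19, −0.25, 0.29 and −0.47 on the log2 scale, and to 0.30 for the difference by DESeq2.

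Of the 10 genes, those with a changed sign were never called. Fev in Db islets, at −0.02, turned to 0.06 by DESeq2, 0 with DESeq2 size factors, 0.29 with library sizes alone, 0.08 with no filter, 0.06 without BKS control replicate 1 and 0.20 without Db replicate 2 (−0.21 to 0.20 with a library left out). Slc18a2 in islets labelled TSC1 KO, at −0.80, turned to 1.5 without RC control replicate 1 (−1.65 to 1.5 with a library left out), and its difference from the Db effect, at −0.29, to 1.94 without RC control replicate 1, 0.06 without TSC1 KO replicate 2, 0.58 without BKS control replicate 2 and 0.09 without Db replicate 1 (−5.60 to 1.94 with a library left out). Tph2 in β-cells was also called by limma-voom (adjusted p = 0.0456) and with no filter (0.00591), over a range of 0.00591 to 0.277 across alternatives, and Fev lost its call by limma-voom (0.178). Where a cause of such a change is not plain from fewer libraries, the cause was not tested. Depth limits Tph1, Tph2, Htr1d and Htr2b in islets and Slc18a2 in Db islets, where counts were too few for a test within the table.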
